A study of Mus musculus with 9 samples.

Results

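The transcripts described here are those of 38 cell cycle and DNA replication genes in postnatal day 3 (PND3) mice. The members were taken by symbol from a list drawn up with earlier results of these data known, without a threshold on values: 20 genes of mitosis, 12 of DNA replication, and 6 cyclins and inhibitors of the G1 phase. On the 2 Agilent 2-colour arrays of that age, 62 of 41174 probes carried a member's name, counting the older symbol Cdc2a for Cdk1. All 38 genes were measured, out of 20200 genes measured in all, where a gene counts as measured if some probe of it stood well above the background of both arrays in the same genotype. Of the 62 probes, 57 met that condition, and the brightest of them stood for its gene. For the probes of a gene, brightest means the highest mean log2 level over both dyes and arrays after background correction. The order by scanner signal can differ.

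One group was RNA of C57BL/6 mice with the Glis3 mutation, written Glis3zf/zf in the series design, and the other was RNA of wild-type (WT) C57BL/6 mice. Glis3 is a zinc finger transcription factor. RNA of 2 pups was pooled for each genotype at PND3, both pools were labelled as pancreas, and the pools were hybridised together on both arrays with the dyes exchanged. They are named the Cy3 array and the Cy5 array here, after the dye of the mutant RNA. As each genotype is 1 pool and the arrays repeat it, there is no test and no p-value, and the number of arrays limits the precision. The series also holds 3 WT and 4 mutant samples at E15.5, whose probe sets were not paired with gene names here and were not analysed for these genes.

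The labelled tissue was checked against marker genes before the members were read. Of 15 pancreas markers, 14 were on the arrays and 9 were measured, and Ins1, Gcg, Ppy, Ptf1a and Amy2a5 were not well above background in either genotype. Summed scanner signals of the pancreas markers were 1271 to 1413 in the mutant pool against 1236 to 1390 in the WT pool. The brightest of those measured, Ctrb1 (a digestive protease) and Nkx6-1 (a beta cell transcription factor), gave 640 and 314 in the WT pool, while Pnlip, Pdx1 and Sst, named after their values were seen, gave 25.2, 23.9 and 25.7. The 13 kidney nephron markers, all measured, summed to 304600 to 326402 and 341702 to 355605. Cdh16 (a kidney cadherin) gave 94633 in the mutant pool against 96266 in the WT pool, and Kap (a kidney androgen-regulated protein) gave 55103 and 82327. Of the kidney markers Kap, at a log2 ratio of -0.59 (mutant over WT, mean of both arrays), was lower and Aqp2 (a collecting duct water channel), at 0.49, higher in the mutant pool on both arrays. In both pools the summed signal of the kidney nephron markers was far above that of the pancreas markers. These markers therefore do not bear out the pancreas label, and the reason was not tested. The ratios below describe these pools and are not read as those of pancreas.

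Cells that divide copy their DNA in S phase and separate the copies in mitosis. Before S phase, Cdc6 and Cdt1 load the MCM helicase onto origins. In S phase Pcna clamps the polymerase to DNA, and ribonucleotide reductase and thymidylate synthase supply nucleotides. G1 cyclins start this programme through release of E2F transcription factors, and the inhibitors p21 and p57 hold it back. The B cyclins and Cdk1 drive entry into mitosis, the spindle checkpoint delays chromosome separation, and Cdc20 ends mitosis by activating the anaphase-promoting complex. In newborn pancreas acinar and endocrine cells divide, and in newborn mouse kidney new nephrons still form, and progenitors and young tubules divide.

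Transcription of replication genes is known to be driven through E2F sites, and that of mitosis genes through CCAAT boxes and a cell cycle homology region (CHR), so promoters are shown first. RefSeq promoters of GRCm38.p6, from 250 bases before to 50 after the start, were found for 30 of the 38 members, and Ccna2, Aurkb, Kif20a, Mcm4, Ccne2, Ccnd1, Ccnd2 and Cdkn1c had none in the table. Exact matches were searched on both strands for the E2F words TTTCGCGC, TTTGGCGC, TTTCCCGC and TTTGCCGC, the CHR words TTTGAA and TTCGAA, and the CCAAT box (CCAAT). A CHR word was present in 13 of 17 mitosis genes (76.5%) and 2 of 11 replication genes (18.2%), against 21.7% of the 27025 genes in the table. An E2F word was present in 6 of 11 replication genes (54.5%) and 1 of 17 mitosis genes (5.88%), against 2.6% of all genes. A CCAAT box was present in 15 of 17 mitosis genes (88.2%) and 8 of 11 replication genes (72.7%), against 41.1% of all genes. By single promoters the shares over the whole table of 32851 were 2.26% for E2F words, 19.2% for CHR words and 37.4% for CCAAT boxes. Neither Ccne1 nor Cdkn1a, the G1 members with a promoter, had any of these words. An E2F word of Mcm7 overlapped another motif, and no other E2F or CHR match in a member did. A match is a description of letters and not a shown binding site.

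**Figure D1:**
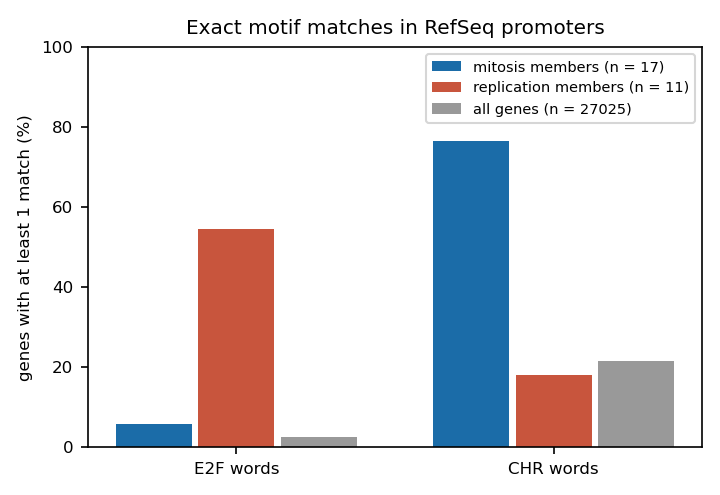
Percent of genes with at least 1 exact match to the E2F words (left) or CHR words (right) in the RefSeq promoter window, for mitosis members (blue, 17 genes), replication members (red, 11 genes) and all genes in the table (grey, 27025 genes). The red bar is tallest for E2F words at 54.5% and the blue bar for CHR words at 76.5%.

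The 250 bases before the start are printed 5′ to 3′ for 5 members, in lower case with matches to the 3 motifs in capitals, on either strand. Top2a is shown for its 4 CHR words and 6 CCAAT boxes, Cdc20 for a CHR word between CCAAT boxes, and Cdk1 as the mitosis member that also holds an E2F word. Mcm6 is shown for its 3 E2F words, of which 1 pair overlaps, and Cdc6 for an E2F word without CCAAT box or CHR word.
Top2a, chr11:99024190-99024439 (minus strand): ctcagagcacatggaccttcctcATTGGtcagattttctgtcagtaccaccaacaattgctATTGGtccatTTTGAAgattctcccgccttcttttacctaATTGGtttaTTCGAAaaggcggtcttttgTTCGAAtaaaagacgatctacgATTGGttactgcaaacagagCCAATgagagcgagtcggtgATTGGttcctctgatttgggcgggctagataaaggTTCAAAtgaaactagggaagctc
Cdc20, chr4:118437344-118437593 (minus strand): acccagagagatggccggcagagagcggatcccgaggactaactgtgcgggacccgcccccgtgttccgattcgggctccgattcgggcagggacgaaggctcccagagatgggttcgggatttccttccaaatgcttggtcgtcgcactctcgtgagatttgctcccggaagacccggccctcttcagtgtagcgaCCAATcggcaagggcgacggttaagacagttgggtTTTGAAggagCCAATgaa
Cdk1, chr10:69352913-69353162 (minus strand): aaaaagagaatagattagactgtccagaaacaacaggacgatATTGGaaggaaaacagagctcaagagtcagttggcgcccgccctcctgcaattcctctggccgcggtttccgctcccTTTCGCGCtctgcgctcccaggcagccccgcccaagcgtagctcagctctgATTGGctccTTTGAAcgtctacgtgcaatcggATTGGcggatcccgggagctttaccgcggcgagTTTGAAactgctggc
Mcm6, chr1:128359706-128359955 (minus strand): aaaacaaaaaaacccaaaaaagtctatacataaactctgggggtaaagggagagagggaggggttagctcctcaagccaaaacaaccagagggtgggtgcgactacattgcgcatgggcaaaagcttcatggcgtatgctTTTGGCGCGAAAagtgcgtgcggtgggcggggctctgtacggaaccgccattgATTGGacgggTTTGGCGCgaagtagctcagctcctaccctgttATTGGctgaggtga
Cdc6, chr11:98907901-98908150 (plus strand): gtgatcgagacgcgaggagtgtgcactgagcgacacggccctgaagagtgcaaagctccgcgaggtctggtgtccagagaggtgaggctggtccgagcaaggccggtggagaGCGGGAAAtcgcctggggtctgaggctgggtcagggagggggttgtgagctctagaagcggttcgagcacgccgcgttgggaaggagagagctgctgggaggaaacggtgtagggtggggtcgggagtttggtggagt

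Ratios are log2 of mutant over WT, and a member's ratio is the mean of its values on both arrays. None of the 38 members was 2-fold or more higher or lower on both arrays, beside 0.193% of all genes. None reached a ratio of 0.32 or more on both arrays (1.87% of all genes did) or of -0.32 or less on both (2.99% of all genes). Ratios past 0.32 in 1 direction on both arrays are called higher or lower below. Member ratios ran from -0.26 for Kif11 to 0.36 for Top2a, or from 0.83-fold to 1.28-fold, with a median of 0.04 against -0.01 for all genes. Of the 38, 33 lay inside the central 90% of all genes (-0.31 to 0.29), and Top2a, Plk1, Mcm2, Bub1b and Mcm6 lay above it. On both arrays 16 members had a ratio above 0 (30.8% of all genes did) and 10 had one below 0 (38% of all genes), and the other 12 changed sign between arrays. Normalization moves these signs: with each array centred on its median in place of loess, 7 of 38 members had a mean ratio above 0 in place of 23. Under that scaling the median over all genes was -0.11 and that of the 8691 genes with a mean log2 level above 10 to -0.22, beside -0.16 for the members. The sign of any member ratio below is therefore relative to this choice.

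The spread between the arrays was of the size of most ratios. Members differed between arrays by a median of 0.13 and at most 0.28, against a median of 0.11 for all genes. The scanner software gave its own error of 0.20 to 0.21 for the log2 ratio of each member. In size, the software's mean ratio passed this single-array error for Top2a, Plk1, Bub1b, Aurka, Kif11, Mcm2, Mcm6, Mcm5, Cdc6 and Ccne1. The share of all genes that passed it was not computed, so nothing is concluded from this list. Neither spread covers differences between pups.

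**Figure D2:**
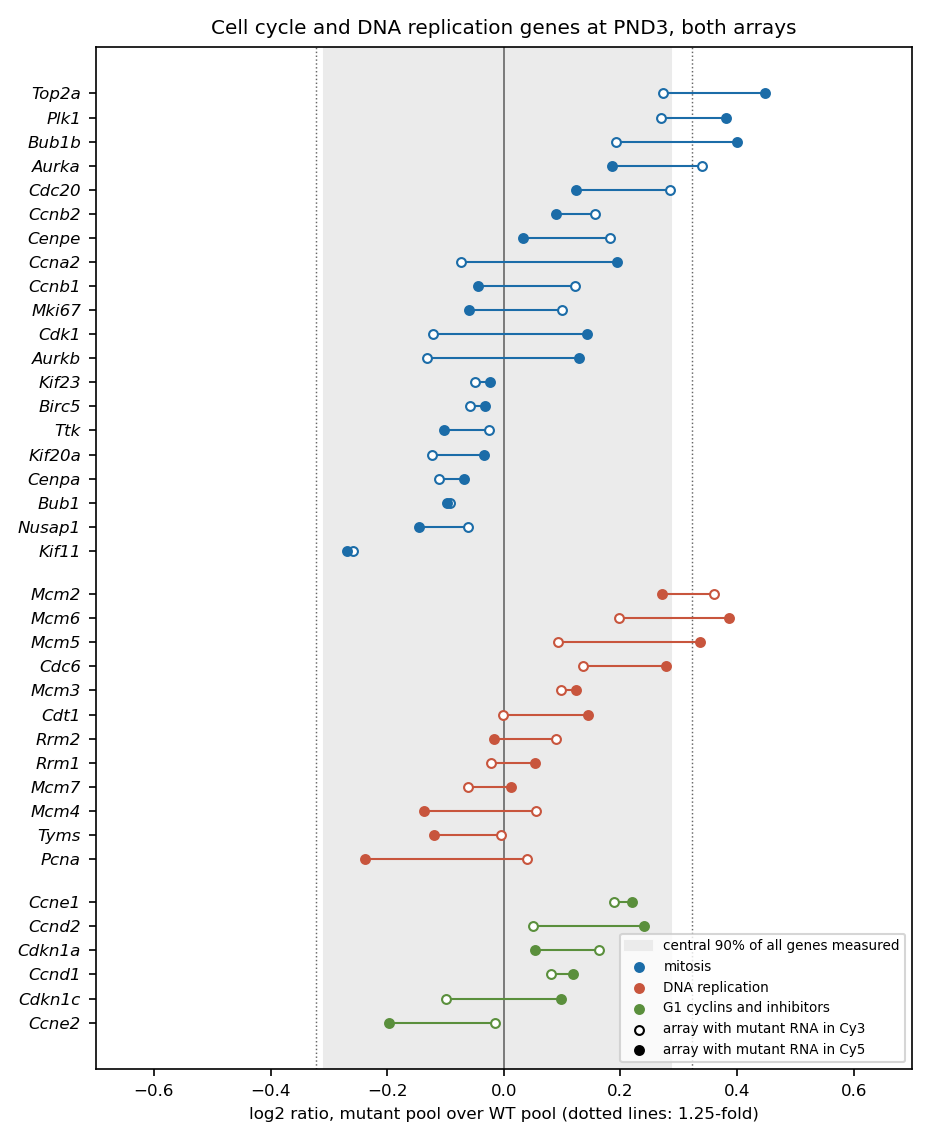
Log2 ratio of the mutant pool over the WT pool (x axis) for each member (y axis), with the Cy3 array as an open point and the Cy5 array as a filled point. Blue marks mitosis genes, red replication genes and green G1 cyclins and inhibitors; the grey band holds the central 90% of all genes (-0.31 to 0.29) and dotted lines mark 0.32 either way, which no member passed in 1 direction on both arrays.

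Every one of the 38 members was well above background in each genotype on each array. Their scanner signals ran from 169 for Ttk to 50790 for Cdkn1c, and 34 of 38 were brighter in the WT pool than the median gene (654), the exceptions being Kif11, Ttk, Cdc6 and Ccne2. Such signals are not compared between genes, since probes differ in binding.

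**Figure D3:**
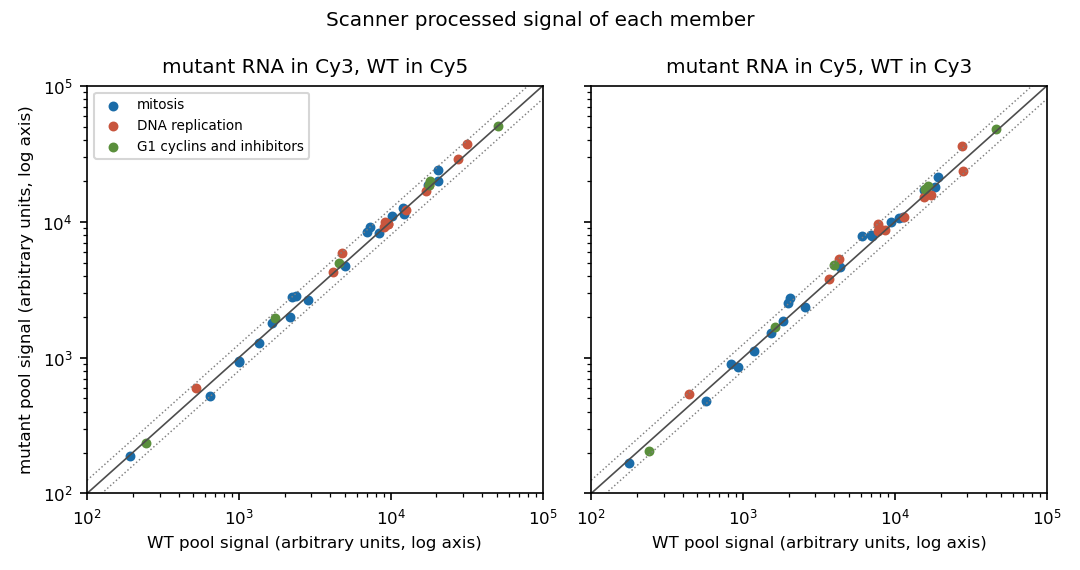
Scanner processed signal in the mutant pool (y axis) against the WT pool (x axis), both in arbitrary units on log axes, for the 38 members on the Cy3 array (left) and the Cy5 array (right). Points lie along the line of equal signal between 169 and 50790, and dotted lines mark a log2 ratio of 0.32 either way.

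Among the 20 mitosis genes the median ratio was 0.02, with 7 above 0 on both arrays, 8 below and 5 of mixed sign. Top2a, the topoisomerase that untangles replicated chromosomes, had the highest ratio of the 38. It gave scanner signals of 2792 and 2726 in the mutant pool against 2251 and 2028 in the WT pool, first on the Cy3 array and then on the Cy5 array, the order used throughout. Its ratios were 0.27 and 0.45, with a mean of 0.36 or 1.28-fold. On each array the mutant signal was the higher, and only the Cy5 array passed 0.32. Plk1, a kinase of mitotic entry and spindle assembly, gave 8406 and 7898 in the mutant pool against 7026 and 6071 in the WT pool. Its ratios were 0.27 and 0.38. The mutant signal was the higher on each array here too. Bub1b, a kinase-like component of the spindle checkpoint, stood at 0.19 and 0.40. It gave 2845 and 2529 in the mutant pool against 2380 and 1989 in the WT pool. Aurka, the kinase that matures centrosomes and builds the spindle, stood at 0.34 and 0.19, with 9096 and 8045 against 7339 and 7007. Of the 5 mitosis genes with the largest ratios in size, Kif11 alone lay below 0, without reaching -0.32. Kif11, the motor that pushes spindle poles apart, gave 519 and 482 in the mutant pool against 645 and 568 in the WT pool. Its ratios of -0.26 and -0.27 made it the lowest of the 38, at 0.83-fold. On each array its WT signal was the higher.

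Other genes of mitotic exit and spindle control lay nearer to 0. Cdc20 stood at 0.28 and 0.12, the only other mitosis gene with a mean above 0.2. Ccnb2, a B cyclin, stood at 0.16 and 0.09, and Cenpe, a kinetochore motor, at 0.18 and 0.03. These genes were above 0 on both arrays. The proliferation antigen Mki67 stood at 0.10 and -0.06, the B cyclin Ccnb1 at 0.12 and -0.04, and Ccna2, the cyclin of S phase and G2, at -0.07 and 0.19. Cdk1, the partner kinase of the mitotic cyclins, stood at -0.12 and 0.14. Aurkb, the kinase of the chromosomal passenger complex, stood at -0.13 and 0.13 and was the mitosis gene nearest 0. For these 5 genes the sign depended on the array. Birc5, or survivin, a partner of Aurkb, stood at -0.06 and -0.03. Kif23, a kinesin of the central spindle, stood at -0.05 and -0.02, and Kif20a, a kinesin of cytokinesis, at -0.12 and -0.03. These 3 genes of cell cleavage were below 0 on both arrays, by less than the median difference between arrays on average. Cenpa, the centromeric histone, stood at -0.11 and -0.07, the checkpoint kinase Bub1 at -0.09 on one array and -0.10 on the other, and the checkpoint kinase Ttk at -0.03 and -0.10. Nusap1, a spindle-binding protein, stood at -0.06 and -0.15. Members of the spindle checkpoint thus lay on both sides of 0, Bub1b above and Bub1 and Ttk below.

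Among the 12 replication genes the median ratio was 0.05, with 5 above 0 on both arrays, 1 below and 6 of mixed sign. The MCM2-7 helicase subunits spanned most of that range. Mcm2 gave signals of 5904 and 5306 in the mutant pool against 4786 and 4272 in the WT pool, with ratios of 0.36 and 0.27, or 1.24-fold. Mcm6 gave 37254 and 36434 against 31816 and 27824, with ratios of 0.20 and 0.39, or 1.22-fold. In both genes the mutant signal was the higher on each array. Mcm5 stood at 0.09 and 0.34, with 10041 and 9681 against 9185 and 7795. Mcm3 stood at 0.10 and 0.12, Mcm7 at -0.06 and 0.01, and Mcm4 at 0.06 and -0.14. The 6 subunits act as 1 ring, and their ratios here ran from -0.04 for Mcm4 to 0.32 for Mcm2. The loader Cdc6 stood at 0.14 and 0.28, with 593 and 538 in the mutant pool against 518 and 438 in the WT pool. Its partner Cdt1 stood at -0.0012 and 0.14. Nucleotide supply was near 0: the reductase subunits Rrm1 at -0.02 and 0.05 and Rrm2 at 0.09 and -0.02, and thymidylate synthase Tyms at -0.0048 and -0.12. Rrm1, with a mean of 0.02, was the replication gene nearest 0.

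Pcna, Ccnd1 and Cdkn1a were each printed on 10 spots of each array, which shows the error of a spot. Over the spots, Pcna stood at 0.04 ± 0.06 (SD, n = 10 spots) on the Cy3 array and at -0.24 ± 0.05 (SD, n = 10 spots) on the other. Its signals were 29051 and 23654 in the mutant pool against 27675 and 28330 in the WT pool, so the direction differed between arrays. Spots of the first array ran from -0.08 to 0.14 and those of the second from -0.31 to -0.16, so the arrays differed by more than the spots of either. Ccnd1 stood at 0.08 ± 0.05 and 0.12 ± 0.05 (SD, n = 10 spots each), and Cdkn1a at 0.16 ± 0.05 and 0.05 ± 0.06 (SD, n = 10 spots each). Over the 206 measured probes printed at least 10 times, the median spot SD was 0.06 on each array. A ratio such as that of Pcna on 1 array can thus be precise over spots and still not recur on the other array. Spots repeat the measurement of 1 RNA pool and are not replicates.

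**Figure D4:**
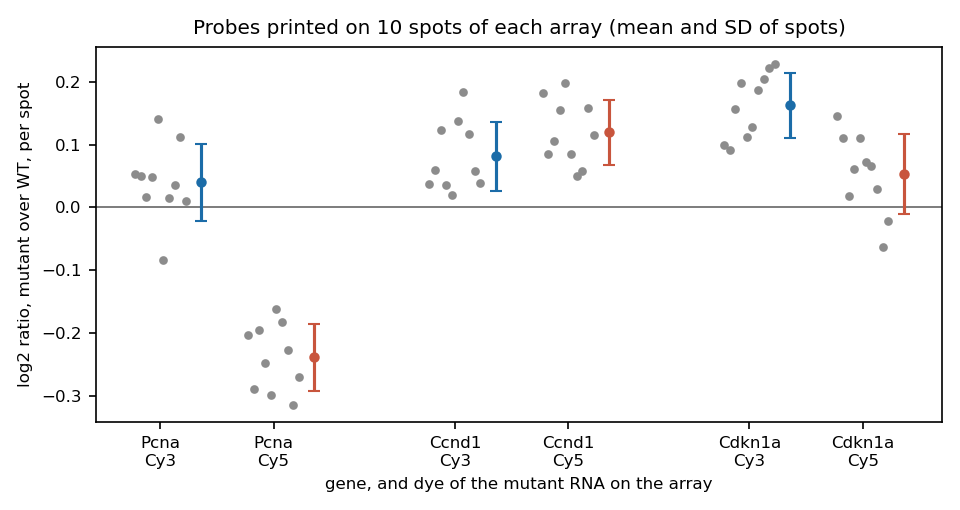
Log2 ratio of mutant over WT (y axis) for each of the 10 spots (grey points) of Pcna, Ccnd1 and Cdkn1a on both arrays, with the mean and SD of the spots beside them in blue (Cy3 array) and red (Cy5 array). Pcna lies at 0.04 on one array and -0.24 on the other, with no overlap of spots.

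The 6 G1 genes had a median ratio of 0.10, with 4 above 0 on both arrays, 1 below and 1 of mixed sign. Ccne1, the cyclin E that starts S phase with Cdk2, had the highest of these ratios, 0.19 and 0.22. It gave 4977 and 4826 in the mutant pool against 4537 and 3952 in the WT pool. Its paralog Ccne2 stood at -0.01 and -0.20, with 235 and 206 against 245 and 239, the WT signal being higher on each array. The cyclin E genes thus lay on opposite sides of 0. The D cyclins, which carry growth signals into the cycle, were above 0: Ccnd2 stood at 0.05 and 0.24, with 20035 and 18372 against 18138 and 16505. Ccnd1 gave 18796 and 17405 in the mutant pool against 17953 and 15866 in the WT pool. For both Ccnd1 and Ccnd2 the mutant signal was the higher on each array. With median centring Ccnd1 stood at -0.21 and -0.10 and Ccnd2 at -0.24 and 0.02. The inhibitor Cdkn1a, or p21, gave 1943 and 1690 against 1730 and 1626, the mutant signal being higher on each array. Cdkn1c, the imprinted inhibitor p57, gave 50438 and 48013 in the mutant pool against 50790 and 46532 in the WT pool. Its ratios were -0.10 and 0.10, and it was the G1 gene nearest 0.

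The median of mitosis genes lay 0.04 below that of replication genes, and 0.11 below it on the Cy3 array and 0.084 below it on the Cy5 array. The ranges of both groups overlapped, at -0.26 to 0.36 for mitosis genes and -0.10 to 0.32 for replication genes, and the difference has no test. Medians on the arrays were -0.04 and 0.0047 for mitosis genes, 0.07 and 0.09 for replication genes and 0.07 and 0.11 for G1 genes. With median centring in place of loess the order turned, at -0.16 for mitosis genes and -0.17 for replication genes. Set by promoter, the 13 mitosis genes with a CHR word had a median ratio of 0.02, from -0.26 to 0.36. The 4 without one had a median of -0.0036, from -0.10 to 0.11. Replication genes with an E2F word (6) had a median of 0.16 and the 5 without one a median of 0.02, over ranges of -0.03 to 0.29 and -0.10 to 0.32. These ranges overlap, and the split was made after ratios were seen and has no test.

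Several probes were measured for 15 of the members, and the probes of a gene differed by a median of 0.12. They disagreed in sign for Kif11, Cenpe and Cdk1, and by over 0.25 for Kif11 alone. The second measured Kif11 probe stood at 0.13 and 0.25, with mean signals of 25.6 in the mutant pool against 16.5 in the WT pool, against 501 and 606 for the probe used. The low ratio of Kif11 therefore rests on its brighter probe. For Cdc6 the dimmer probe stood at 0.49 and 0.42, and it was the only one of the 57 measured member probes called higher. None of the 57 was called lower. By gene, 1.87% of all genes were called higher and 2.99% lower, and shares over all probes were not computed. The second probe of Mcm3 stood at 0.40 and 0.21 and that of Mki67 at 0.30 and 0.14, both above the probe used. For Top2a the second probe stood at 0.06 and 0.42. The other probes of Ccnd2 stood at 0.36 and 0.21 and at 0.40 and 0.27, each pair with a higher mean than the probe used. The first 30 of the 60 bases are printed for the probes of Kif11, which differed most, and of Cdc6, which differed next most, so that the oligos behind these values can be seen.
Kif11, brighter probe: cctacctaaaagtgtatgcagagagtaagt
Kif11, dimmer probe: gaggagtgataatcaaagacttagaggaaa
Cdc6, brighter probe: ccccagaatcttcattttagtaaggtcgtt
Cdc6, dimmer probe: ttaagaaccagattaagtttccatagtgtc

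Over the full 60 bases the Kif11 pair shared no run longer than 5 bases and the Cdc6 pair none longer than 7, so each pair reads separate stretches. Probes of Kif20a overlapped by 33 bases and a pair of Tyms probes by 23, and those are not separate readings. Among 1861 pairs of probes to different members the longest shared run was 12 bases.

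Other cell cycle genes, from lists chosen with earlier results of these data known, covered 130 further genes, of which 128 were measured. Their median ratio was 0.06, and 59 (46.1%) were above 0 and 30 (23.4%) below 0 on both arrays, beside 30.8% and 38% of all genes. Of the 128, 5 were called higher, or 3.91%, and 3 lower, or 2.34%, beside 1.87% and 2.99% of all genes. Ccnf, an F-box cyclin that targets proteins for degradation, had the highest ratio of these lists, 0.55 and 0.68, with mean signals of 879 in the mutant pool against 541 in the WT pool. Cdc25a, the phosphatase that activates Cdk2, stood at 0.48 and 0.37, and the third D cyclin, Ccnd3, at 0.43 and 0.40. Cdc45 and Mcm10, which convert the loaded MCM ring into an active helicase, stood at 0.34 and 0.41 and at 0.35 and 0.37. These 5 genes stayed above 0 with median centring, at 0.16 to 0.47. Not all did: Pold1 and Prc1, above 0 on both arrays with loess, had means of -0.02 and -0.01. Shares above 0 in these lists, here and in the next paragraph, are those with loess. They were not computed with median centring and are relative to that choice. Orc3, a subunit of the origin recognition complex, stood at -0.38 and -0.43. Dck, the deoxycytidine kinase of nucleotide salvage, stood at -0.51 and -0.37, and Myc, a growth transcription factor, at -0.48 and -0.37. These 3 were the genes called lower.

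By list, 11 of 18 kinetochore and checkpoint genes, 7 of 15 spindle and cytokinesis genes and 3 of 11 condensin and cohesin genes were above 0 on both arrays, or 61.1%, 46.7% and 27.3% beside 30.8% of all genes, and none of the genes of these lists was called higher or lower. Their medians were 0.11, 0.06 and 0.03. Ncapg and Ncaph, subunits of condensin, stood at means of 0.32 and 0.28, Kif2c and Prc1 of the spindle at 0.32 and 0.22, and the kinetochore genes Sgo2a and Dsn1 at 0.27 each. The polymerase and fork list had a median of 0.06 over 22 genes, of which none was called. Its highest were Chaf1a, a histone chaperone of the fork, at 0.69 and 0.26, and Pold1, a polymerase subunit, at 0.16 and 0.25. The 15 origin and helicase genes had a median of 0.03 and the 9 nucleotide supply genes one of 0.07, where Ctps, a CTP synthase, stood at 0.47 and 0.12. Cyclins, kinases and inhibitors outside the members had a median of 0.07 over 19. E2F, Myb and Rb regulators had a median of -0.03 over 19, with E2f1 at 0.52 and 0.15. The 12 p53 target genes, read beside the p53 target Cdkn1a, had a median of -0.09. Among them Phlda3 stood at 0.64 and 0.27, and Gadd45a, at -0.46 and -0.34, was called lower.

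**Figure D5:**
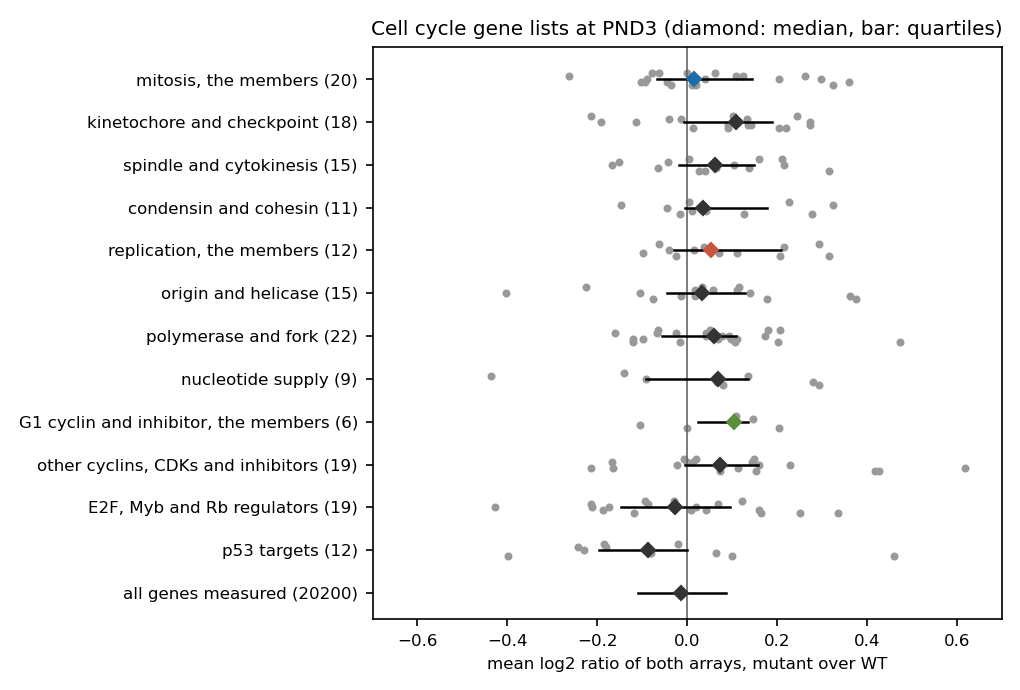
Mean log2 ratio of both arrays, mutant over WT (x axis), for each measured gene (grey points) of the member groups and of other cell cycle lists (y axis, number measured in brackets), with the median as a diamond and quartiles as a bar. Medians lie between -0.09 for p53 targets and 0.11 for kinetochore genes, and that of all genes measured at -0.01.

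Markers of some other cells included genes with ratios further from 0 than any member. Summed signals of the 12 oocyte markers were 358 to 366 in the mutant pool against 2831 to 3074 in the WT pool. Bmp15 and Oosp1 were not well above background in either pool. Zp2, Nlrp14, Nlrp5 and Figla were well above background in the WT pool alone, and Dppa3 and Oas1d on 1 mutant array, so these passed as measured through the WT pool and no count or median is given. Padi6 and Gdf9, the brightest at 736 and 622 in the WT pool, were well above background in both pools, with ratios of -2.45 and -2.46 and of -1.62 and -1.60. Of 9 adipose markers 8 were measured, all but Lep, and 7 were below 0 on both arrays, beside 38% of all genes. The median was -0.56, and the 9 summed to 56807 to 61032 in the mutant pool against 66117 to 72677 in the WT pool. Fabp4 and Lpl were brightest at 56998 and 4101 in the WT pool. Fabp4 had a mean ratio of -0.20 and Lpl one of 0.12, the only one above 0. Ucp1, Cidea, Plin1 and Adipoq, at -1.17, -0.95, -0.90 and -0.85, were called lower, beside 2.99% of all genes. The 11 leukocyte markers had sums of 23669 to 25712 against 28309 to 31175, led by Lyz2 and Coro1a at 20635 and 2215 in the WT pool. Of these Cd79a was well above background on 1 mutant array only and passed as measured through the WT pool. No count below 0 and no median is therefore given for this list. Tyrobp, at -0.58, was called lower. The 6 erythroid markers measured had a median of -0.07 and sums of 61180 to 61446 against 80920 to 85774. Hba-a1 and Alas2 led, at 75307 and 2672 in the WT pool, and Slc4a1, at -0.61, was the 1 called lower. The 10 nephron progenitor markers had a median of 0.13, with sums of 14018 to 16263 against 14147 to 15243, and Lhx1 and Crym were brightest at 3864 and 3750. The part of these cells in the members' ratios was not tested. Fewer cells of a type and less RNA per cell cannot be told apart in such pools.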

How the data were processed

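RNA (500 ng per pool, 2 mice each) was amplified and labelled with Cy3 or Cy5, per the labels' protocols. The deposited scanner files hold spot and background intensities, processed signals, log10 ratios of Cy5 over Cy3, and flags for spot type and quality (other columns, used as flags), per the file headers, from Agilent Feature Extraction 9.1.3.1 (the submitters' processing notes name 8.1). The deposited value table holds log2 ratios of mutant over WT, matching the scanner's (r = 0.9996 and 0.9997, median 0 for both). Background was corrected by normexp (offset 50, which draws dim ratios toward 0) and ratios normalized by loess within arrays, with limma 3.58.1 in R 4.3.3, after a test on simulated data. Control spots were dropped, as were 18 and 26 outlier spots. Saturation touched 0 spots, and 72.8% to 76.6% were bright against background. RefSeq accessions named 22951 of 41174 probes and older symbols 3109 more. Members and lists were chosen with earlier results of these data known. Named are all members, and per list 2 genes with the largest ratio (cell cycle lists) or highest signal (marker lists), plus genes past a log2 ratio of 0.32 where 5 or fewer. There were 12 alternatives. The planned E15.5 fits were not run.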

Additional observations from a re-analysis of the deposited data

How the results depend on the processing

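No member was 2-fold apart under any of the 12 alternatives, beside 0.141% to 0.856% of all genes. The count of members called higher was 0 under every alternative that used both arrays, beside 0.653% to 4.21% of all genes. It was 5 of 38 (Top2a, Bub1b, Plk1, Mcm5 and Mcm6) on the Cy5 array alone, beside 3.75% of all genes. On the Cy3 array alone it was 2 of 38 (Aurka and Mcm2), beside 5.98% of all genes. The count called lower was 1 of 38 (Kif11) with median centring, beside 9.94% of all genes. It was 0 otherwise, beside 2.18% to 6.19% of all genes. With median centring the medians were -0.16 for mitosis, -0.17 for replication and -0.13 for G1 genes, where all genes stood at -0.11, and 16 of 38 members changed sign. Leaving out each array in turn gave medians of -0.037 to 0.0047 for mitosis, 0.072 to 0.088 for replication and 0.066 to 0.11 for G1 genes, and 6 members changed sign each time. The other alternatives changed the sign of at most 1 member each. The cause was not tested. No paired analysis was possible because the PND3 comparison has 1 pool per genotype, and the planned E15.5 fits and their replicate block were not run, since no table paired probe sets with genes. All 38 probes used were well above background, while the second Kif11 probe was dim, and 1 pool per genotype gives no spread between animals.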
